A study of Mus musculus with 12 samples.

Results

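The genes described here are 10 targets and components of the ATF4 branch of the integrated stress response, Atf4, Ddit3, Trib3, Asns, Chac1, Psat1, Phgdh, Shmt2, Mthfd2 and Sesn2, in cultured mouse trigeminal ganglion neurons. Their probes were found by gene symbol in the platform annotation, and all 10 were measured, out of 19505 gene symbols on 19572 named probes. Ddit3 had 2 probes and the others 1, and for Ddit3 the probe with the higher mean signal was taken. These sensory neurons, which serve the face and mouth, were grown on laminin as a primary culture and transfected, and the 12 arrays fall into 4 groups of 3 that received miR-21, miR-34a or miR-324, or scramble miRNAs as the control. All groups, the scramble group included, went through transfection, and no untransfected culture was analysed here. The labels give neither the strain, age and sex of the mice nor the dose and the time after transfection, and they do not name the arm of each miRNA. Whether the arrays within a group are separate cultures or animals is not stated either, so the p-values cover only the spread between these arrays, which may be technical. The 3 comparisons with scramble share the same 3 scramble arrays.

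In the integrated stress response, kinases that sense unfolded protein, amino acid shortage, viral RNA or haem shortage phosphorylate the translation initiation factor eIF2. General protein synthesis then slows while the mRNA of the transcription factor ATF4 is translated more, so ATF4 is controlled to a large part at translation and its mRNA level shows only some of that control. ATF4 turns on genes for amino acid synthesis and uptake, for mitochondrial folate metabolism and for feedback on the pathway, and under lasting stress the transcription factor CHOP, the product of Ddit3. Arrays measure mRNA, so neither eIF2 phosphorylation nor ATF4 protein was measured.

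The transfected molecules are shown because they define the groups, as mature mouse sequences from RefSeq (GRCm38.p6), 5′ to 3′, with the seed (bases 2 to 8), the stretch that pairs with target mRNAs, in capitals. The 5p arm is given for miR-21 and miR-34a, where it is the usual guide strand, and both arms for miR-324, whose arms have different seeds.
miR-21a-5p: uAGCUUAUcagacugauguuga
miR-34a-5p: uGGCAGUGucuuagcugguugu
miR-324-5p: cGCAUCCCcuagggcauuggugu
miR-324-3p: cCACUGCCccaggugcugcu

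ATF4 binds the C/EBP-ATF response element, searched here as TGATGNAA on both strands in the RefSeq promoter windows, which begin 250 bases before the gene start. These letters were in the windows of 3 of the 10 genes, Chac1, Asns and Trib3 (in Trib3 after the start), and in 4.51% of all 27025 genes. The narrower TGATGCAA was in the window of 1 of the 10, Chac1, and in 1.03% of all genes. The ER stress element (CCAAT and CCACG 9 bases apart) was in the windows of 0 of the 10 genes and in 0.137% of all genes. Both stretches below are on the gene's strand of GRCm38.p6, with the matching letters in capitals. They lie at chr2:119351029-119351076 (plus strand) for Chac1, where the match is on the opposite strand, and at chr6:7693210-7693252 (minus strand) for Asns. A match is only a match of letters, and a window without one shows only that these letters are not in it.
Chac1: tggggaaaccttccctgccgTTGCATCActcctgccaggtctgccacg
Asns: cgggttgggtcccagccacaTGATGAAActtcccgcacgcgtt

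The values are log2 signals from Clariom S Mouse arrays, and a difference of 1 is 2-fold. Array medians ran from 5.91 to 6.06. The 1414 probes for olfactory and vomeronasal receptors, which a ganglion culture should largely lack, had a 95th percentile of 4.87 to 5.8 in the 12 arrays. All 12 pan-neuronal markers exceeded that level on every array, and so did all 6 satellite glia markers and 6 of 7 endothelial markers. Passing that level therefore does not set neurons apart from these other cells. The arrays differed in other cell markers, and not by group alone. The median of the pan-neuronal markers was 12.44 to 12.85 on the miR-21 arrays, 10.17 to 14.59 on the miR-34a arrays, 10.77 to 13.27 on the miR-324 arrays and 13.52 to 14.52 on the scramble arrays, with the lowest values on miR-34a 3 and miR-324 1. Prl, which encodes the pituitary hormone prolactin, read 14.26 to 15.17 on the 3 miR-324 arrays and 14.92 on scramble 3, against 4.83 or less on the other 8. The Y-linked gene Eif2s3y read 7.09 to 8.53 on the 3 miR-21 arrays, miR-34a 3 and miR-324 1, 5.13 on miR-324 4 and 2.96 or less on the other 6. Arrays miR-34a 1 and 2 and scramble 1 and 2 carry one label suffix, here suffix A, while miR-324 2 and scramble 3 carry another, suffix B, and 6 carry none. The labels do not say what a suffix means. In bulk RNA, fewer cells of a type cannot be told apart from less RNA per cell.

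None of the 10 genes passed the limma test in any of the 6 comparisons between groups, at an adjusted p under 0.05 over the 19572 named probes, while the share of all probes called was 0% to 2.46% by comparison. The widest separation of group means was that of Psat1, Phgdh and Asns. Their lowest group means, and that of Shmt2, were those of miR-324. Mthfd2, also an enzyme gene, had the narrowest range of group means (0.07). The lowest means of Atf4, Ddit3, Trib3, Chac1 and Sesn2 lay in other groups. The values are given below by role, first the transcription factor, then the stress and feedback genes, then the enzymes of asparagine, serine and folate metabolism.

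**Figure D1:**
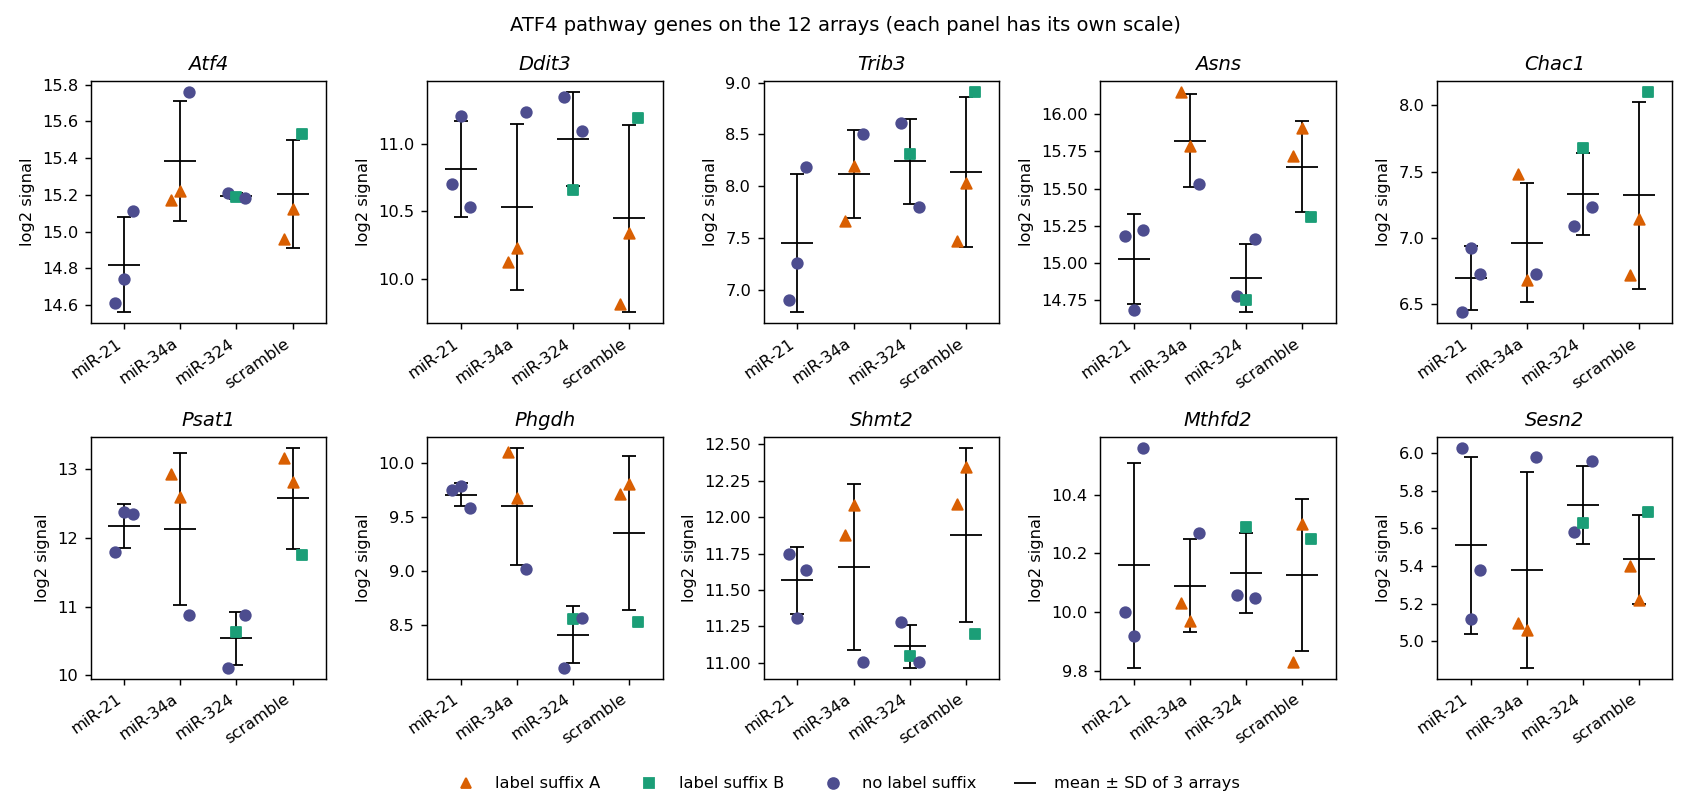
Log2 signal (vertical axes, each panel on its own scale) of the 10 genes on the 12 arrays, by group on the horizontal axes, with points for arrays, marker shape for the label suffix, and lines for the mean ± SD of 3 arrays. The miR-324 arrays hold the lowest Psat1 and Phgdh signals, apart from an overlap with miR-34a 3 in Psat1 and with scramble 3 in Phgdh, and the suffix A arrays hold the highest Psat1, Asns and Shmt2 signals.

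Atf4 (chr15:80255184-80257545 in GRCm38.p6) read 14.61, 14.74 and 15.11 on the miR-21 arrays, 15.17, 15.22 and 15.76 on the miR-34a arrays, 15.21, 15.19 and 15.18 on the miR-324 arrays, and 14.96, 15.12 and 15.53 on the scramble arrays. Each miRNA group overlapped scramble, and the miR-324 arrays lay closest together (SD 0.02, n = 3). The difference from scramble was -0.38 ± 0.24 (SE) for miR-21, 0.18 ± 0.24 for miR-34a and -0.01 ± 0.24 for miR-324, with limma adjusted p of 0.442, 0.999 and 0.988. The group order from low to high was miR-21, miR-324, scramble and miR-34a. All 3 miR-34a arrays lay above all 3 miR-21 arrays, a difference of 0.56 ± 0.24 between means of 15.38 ± 0.33 and 14.82 ± 0.26 (SD, n = 3 each), which did not pass the test (limma, adjusted p = 0.416).

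Ddit3 (chr10:127290793-127296291) encodes CHOP, a transcription factor that promotes cell death in prolonged stress. Its signal was 10.70, 11.21 and 10.53 with miR-21, 10.12, 10.23 and 11.24 with miR-34a, 11.35, 10.66 and 11.10 with miR-324, and 9.81, 10.34 and 11.19 with scramble. Every pair of groups overlapped, and the scramble arrays alone spanned most of the range of the 12. The largest difference from scramble was 0.59 ± 0.39 (SE) for miR-324, with an interval from -0.25 to 1.43 and a limma adjusted p of 0.471. The second Ddit3 probe, whose identifier marks it as unmapped, averaged 9.69 ± 0.05 with miR-324 and 8.99 ± 0.73 with scramble (SD, n = 3 each). That is a difference of 0.70 ± 0.33 (SE) with a limma adjusted p of 0.346. Unlike with the first probe, all miR-324 arrays lay above all miR-34a and all miR-21 arrays. The difference from miR-324 was -0.91 for miR-34a and -0.42 for miR-21 (limma, adjusted p = 0.33 and 0.642).

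Trib3 (chr2:152337425-152344060) encodes a pseudokinase induced by ATF4 and CHOP that restrains ATF4. Its signal was 6.90, 7.26 and 8.19 with miR-21, 7.66, 8.20 and 8.50 with miR-34a, 8.61, 8.31 and 7.80 with miR-324, and 7.47, 8.03 and 8.91 with scramble. The lowest pair of arrays had miR-21, and the highest array was scramble 3. The miR-21 mean differed from scramble by -0.69 ± 0.42 (SE; limma, adjusted p = 0.425), and the groups overlapped. The other two miRNAs differed from scramble by -0.02 and 0.10.

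Chac1 (chr2:119351242-119354326), whose product degrades glutathione, read 6.44, 6.92 and 6.73 with miR-21, 7.48, 6.68 and 6.73 with miR-34a, 7.09, 7.68 and 7.23 with miR-324, and 6.72, 7.14 and 8.10 with scramble. As for Trib3, the highest value was that of scramble 3 and the lowest that of miR-21 1. The difference from scramble was -0.62 ± 0.35 (SE) for miR-21, with an interval from -1.38 to 0.14 and a limma adjusted p of 0.393. It was -0.36 for miR-34a and 0.01 for miR-324.

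Sesn2 (chr4:132492804-132510456), which encodes sestrin 2, a leucine-sensing inhibitor of mTORC1, was close to the level of the receptor probes. Its signal was 6.03, 5.12 and 5.38 with miR-21, 5.10, 5.06 and 5.98 with miR-34a, 5.58, 5.63 and 5.96 with miR-324, and 5.40, 5.22 and 5.69 with scramble. All groups overlapped, and signals near that level understate differences. Differences from scramble lay between -0.06 and 0.29.

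Asns (chr6:7675165-7693209) encodes asparagine synthetase, the enzyme that makes asparagine from aspartate and glutamine. It read 15.18, 14.68 and 15.22 with miR-21, 16.15, 15.79 and 15.53 with miR-34a, 14.78, 14.75 and 15.16 with miR-324, and 15.72, 15.91 and 15.31 with scramble. All miR-21 and all miR-324 arrays lay below every scramble and every miR-34a array, whereas miR-34a overlapped scramble. Against scramble (15.65 ± 0.31), miR-324 averaged 14.90 ± 0.23 (SD, n = 3), a difference of -0.75 ± 0.26 (SE) and 1.68-fold lower, with a limma adjusted p of 0.309. With the suffix as a fixed block the miR-324 difference was -0.49 (limma, adjusted p = 0.962). Between these groups only miR-324 2 and scramble 3 share a suffix, and that block sets the other arrays against each other through miR-34a. The same limit holds for the fixed-block values of miR-324 against scramble below. With miR-21 the mean was 15.03 ± 0.30, a difference of -0.62 ± 0.26 from scramble (limma, adjusted p = 0.254). The difference of miR-34a from miR-324 was 0.93 ± 0.26 (limma, adjusted p = 0.318), and that of miR-34a from miR-21 was 0.80 ± 0.26 (limma, adjusted p = 0.28). The neighbouring groups in the order, miR-324 with miR-21 and scramble with miR-34a, overlapped.

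Psat1 (chr19:15905123-15925059) and Phgdh (chr3:98313171-98339969) encode successive enzymes of serine synthesis from glycolysis, with Phgdh for the first step. Psat1 varied more between arrays than the other 9 genes, over a range of 3.06. It read 11.80, 12.37 and 12.35 with miR-21, 12.93, 12.59 and 10.87 with miR-34a, 10.11, 10.63 and 10.87 with miR-324, and 13.17, 12.81 and 11.75 with scramble. The miR-324 arrays lay below all miR-21 and all scramble arrays, and 1 of them equalled miR-34a 3. Against scramble, Psat1 averaged 10.54 ± 0.39 with miR-324 and 12.58 ± 0.74 with scramble (SD, n = 3 each). The difference was -2.04 ± 0.50 (SE), 4.11-fold lower, with an interval from -3.12 to -0.96, and it did not pass the test over all probes (limma, adjusted p = 0.309). The interval is not adjusted for the number of probes. The value depended on which arrays were set against each other. With the suffix as a fixed block it was -0.89 (limma, adjusted p = 0.954), and with the suffix as a random block -1.54 (limma, adjusted p = 0.704). Without scramble 3, which leaves only scramble arrays of suffix A, it was -2.45 and passed (limma, adjusted p = 0.0434).

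Phgdh read 9.75, 9.79 and 9.59 with miR-21, 10.10, 9.68 and 9.02 with miR-34a, 8.11, 8.56 and 8.57 with miR-324, and 9.72, 9.81 and 8.53 with scramble. The miR-324 arrays were below all miR-21 and all miR-34a arrays, but scramble 3 lay among them. The difference of miR-324 from scramble was -0.94 ± 0.36 (SE; limma, adjusted p = 0.317), and -0.23 with the suffix as a fixed block (limma, adjusted p = 0.99). Without scramble 3 it was -1.35 (limma, adjusted p = 0.05, just under the threshold before rounding). With miR-21 the mean was 9.71 ± 0.11, against 8.41 ± 0.26 with miR-324 (SD, n = 3 each), a difference of 1.30 ± 0.36 (SE) and the smallest adjusted p of the 10 genes in any comparison (limma, adjusted p = 0.088). For Psat1 the same comparison of miR-21 with miR-324 gave 1.64 ± 0.50 (limma, adjusted p = 0.129). The comparison of miR-34a with miR-324 gave 1.59 for Psat1 and 1.19 for Phgdh (limma, adjusted p = 0.319 for both).

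Neither gene was called in these comparisons in the fit of all 12 arrays without a block, and several other settings called them. For miR-21 against miR-324, both passed in the limma fit of those groups alone (adjusted p = 0.00903 for Psat1 and 0.0125 for Phgdh) and with the suffix as a fixed block (adjusted p = 0.00164 for Psat1 and 0.00442 for Phgdh). They also passed without miR-34a 3, for miR-21 and for miR-34a against miR-324. For miR-21 against miR-324 the limma adjusted p was then 0.0197 for Psat1 and 0.0379 for Phgdh. For miR-34a against miR-324 it was 0.0382 for Psat1 and 0.0445 for Phgdh. The fit of all 12 arrays without a block called 2.46% and 0% of all probes in these comparisons. The share called in the other settings is not given here, so these calls do not set Psat1 and Phgdh apart from other genes. Psat1 read 10.11 to 11.75 on the miR-324 arrays, miR-34a 3 and scramble 3, and 11.80 to 13.17 on the other 7 arrays. Phgdh read 8.11 to 9.02 and 9.59 to 10.10 on the same sets of arrays. The satellite glia medians split the arrays in the same way. The median of 6 satellite glia markers, all above the receptor probes on every array, was 10.13 to 10.77 on the miR-21 arrays, 8.76 to 11.25 on the miR-34a arrays, 7.97 to 9.07 on the miR-324 arrays and 8.95 to 11.50 on the scramble arrays, with miR-34a 3 and scramble 3 the lowest of their groups. Sox10, 1 of these 6 satellite glia markers, did not follow their median within the miR-34a and miR-324 groups. It read 14.06 on miR-34a 3, against 12.91 and 12.88 on miR-34a 1 and 2. On miR-324 1 it was also the highest of its group (13.51), but on scramble 3 the lowest (11.44). The endothelial markers ran the other way from Psat1 and Phgdh. Their medians were 13.24 to 14.96 on the miR-324 arrays, 14.06 on miR-34a 3 and 12.23 on scramble 3. On the other 7 arrays they were 10.19 to 10.97. The dividing-cell markers also split the arrays as Psat1 and Phgdh did. Medians of 7 markers were 5.34 to 6.31 on the miR-324 arrays, miR-34a 3 and scramble 3. They were 8.13 to 8.65 on the other 7 arrays, and 3 of the 7 markers were above the receptor probes on every array. The fibroblast markers gave 7.43 to 9.40 and 10.19 to 11.44 on the same sets of arrays, with 5 of 7 above the receptor probes on every array. The part of the cell mixture in the Psat1 and Phgdh differences was not tested.

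Shmt2 (chr10:127517123-127522444) and Mthfd2 (chr6:83305704-83326011) encode mitochondrial enzymes that pass the carbon of serine into the folate pool. Shmt2 read 11.75, 11.31 and 11.64 with miR-21, 11.88, 12.08 and 11.01 with miR-34a, 11.28, 11.05 and 11.01 with miR-324, and 12.09, 12.34 and 11.20 with scramble. The low arrays were those of miR-324 together with miR-34a 3 and scramble 3. The difference of miR-324 from scramble was -0.76 ± 0.33 (SE; limma, adjusted p = 0.328), and the groups overlapped. With the suffix as a fixed block it was -0.13 (limma, adjusted p = 0.994). Mthfd2, at 10.00, 9.92 and 10.56 with miR-21, 10.03, 9.97 and 10.27 with miR-34a, 10.06, 10.29 and 10.05 with miR-324, and 9.83, 10.30 and 10.25 with scramble, had group means within 0.07 of each other. Its interval against scramble was -0.48 to 0.54 for miR-21, -0.55 to 0.47 for miR-34a and -0.50 to 0.52 for miR-324. These intervals are not adjusted over probes, so they do not give the size at which a difference would be called. With 3 arrays a group, larger differences of other genes were not called, such as -0.75 for Asns with miR-324.

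**Figure D2:**
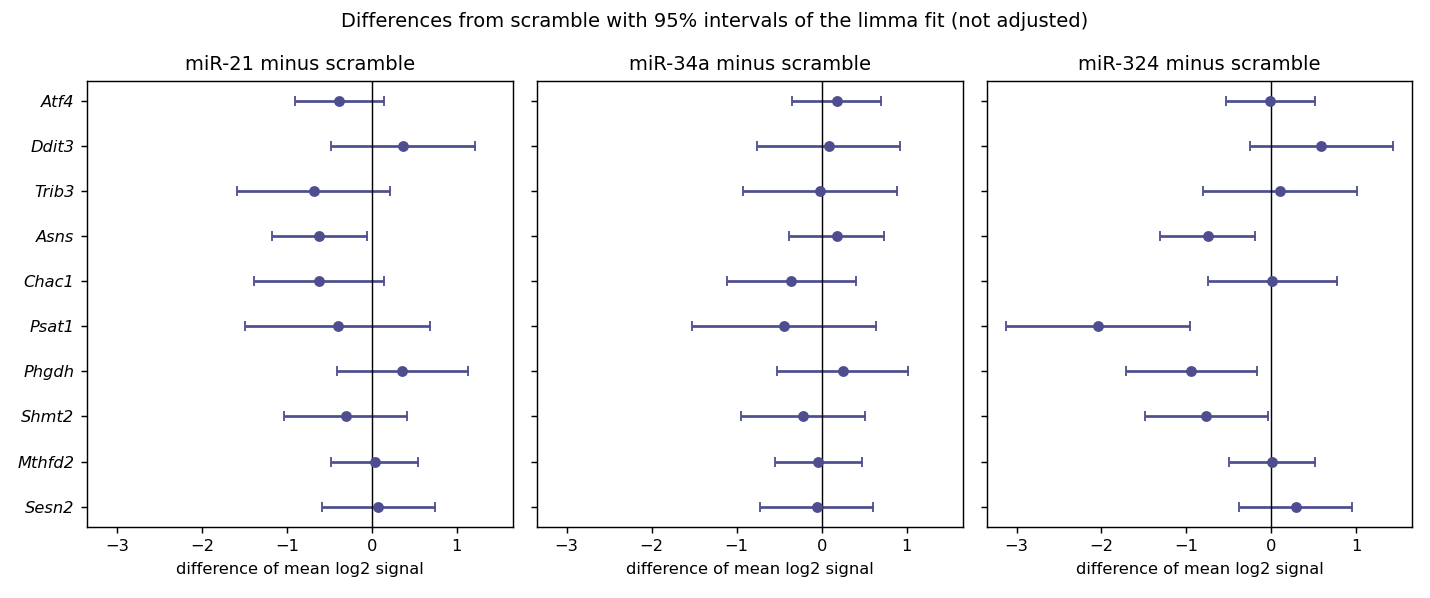
Difference of mean log2 signal from scramble (horizontal axes) for the 10 genes, in 1 panel for each miRNA, with the 95% interval of the limma fit, not adjusted over probes. In the miR-324 panel the intervals of Asns, Psat1, Phgdh and Shmt2 lie below 0, in the miR-21 panel that of Asns does, and in the miR-34a panel all include 0.

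Against scramble, miR-21 had 0 of the 10 genes called, while limma called 204 of 19572 probes (1.04%). That count ranged from 11 without miR-21 1 to 935 without miR-34a 3, and the 10 genes had 0 calls in each of those 12 fits. It had 1 gene with an unadjusted p under 0.05, Asns, while 16.6% of all probes had such a p. The miR-21 arrays lay above all scramble arrays for 0 of the 10 genes and below them for 1, Asns, against 16.9% and 8.75% of all probes. The median difference of the 10 genes was -0.35, beside 0.13 for all probes.

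With miR-34a, 0 of the 10 genes were called and 0 probes of the table (0%), and the 10 genes had no unadjusted p under 0.05, beside 1.46% of all probes. The groups overlapped for all 10, while the miR-34a arrays lay above scramble for 3.49% of all probes and below for 2.31%. The median difference was -0.03, beside 0.04 for all probes.

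With miR-324, limma called 0 of the 10 genes and 0 probes of the table (0%). Without scramble 3, the scramble array with Prl at the level of the miR-324 arrays, it called 383 probes and 2 of the 10 genes, Psat1 and Phgdh. Over all 12 arrays, at an unadjusted p under 0.05 there were 4 genes, Asns, Psat1, Phgdh and Shmt2, all lower with miR-324, beside 14.7% of all probes in either direction. The miR-324 arrays lay above all scramble arrays for 0 of the 10 and below for 2, Asns and Psat1, against 12.6% and 7.3% of all probes. The other genes did not follow: 5 of the 10 had a higher mean with miR-324 and 5 a lower one, and the median difference was -0.0017, beside 0.09 for all probes.

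Between the miRNAs, limma also called 0 of the 10 genes. It called 31 probes of the table (0.158%) for miR-34a against miR-21, 481 (2.46%) for miR-21 against miR-324 and 0 (0%) for miR-34a against miR-324. In the F test for any difference between the 4 groups, 0 of 10 passed beside 118 of all probes (0.603%), and the smallest adjusted p were 0.166 for Psat1, 0.171 for Asns and 0.208 for Phgdh. At an unadjusted p under 0.05 there were 2 genes for miR-34a against miR-21, 2 for miR-21 against miR-324 and 3 for miR-34a against miR-324, beside 11.3%, 14.7% and 13% of all probes.

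The label suffix also separated some of the genes. The 4 arrays of suffix A, 2 with miR-34a and 2 with scramble, lay above the other 8 arrays for Asns, Psat1 and Shmt2 and below them for Ddit3, and overlapped them for the other 6. That is 3 of 10 genes above and 1 below, beside 6.63% and 4.13% of all probes. Psat1 was 12.59 to 13.17 on the suffix A arrays and 10.11 to 12.37 on the others, and Ddit3 was 9.81 to 10.34 on the suffix A arrays and 10.53 to 11.35 on the others. Macrophage markers followed the same arrays, with a median of 9 markers of 6.99 to 7.82 on the suffix A arrays and 3.99 to 5.44 on the others, and 1 of the 9 above the receptor probes on every array. Their part in these values was not tested.

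Within suffix A, miR-34a 1 and 2 differed from scramble 1 and 2 by 0.07 to 0.24 in size across the 10 genes, and limma called 0 of 10 genes and 0 probes in this fit of 4 arrays with 2 residual degrees of freedom (smallest adjusted p of the genes 0.997). Within suffix B there was 1 array a group and no test. There miR-324 2 minus scramble 3 was -1.12 for Psat1, -0.60 for Trib3, -0.56 for Asns, -0.53 for Ddit3 and -0.42 for Chac1. The same difference was -0.34 for Atf4, -0.15 for Shmt2, -0.06 for Sesn2, 0.03 for Phgdh and 0.04 for Mthfd2. Both arrays are also part of the group means, so the pair is no separate support for them. Psat1 and Asns were lower in it as in the group means, Shmt2 by only -0.15, and Phgdh was not lower. Trib3 and Ddit3 were lower in it, although their group means with miR-324 differed from scramble by 0.10 and 0.59. All 3 miR-21 arrays carry no suffix and no scramble array lacks one, so miR-21 could not be compared with scramble within a suffix. A fixed block for the suffix sets miR-21 against scramble only by way of the other groups. The largest differences there were -1.09 for Trib3 and 1.075 for Phgdh. Psat1 differed by 0.85, Atf4 by -0.75, Ddit3 by -0.60 and Asns by -0.42, with no call among the 10 genes.

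**Figure D3:**
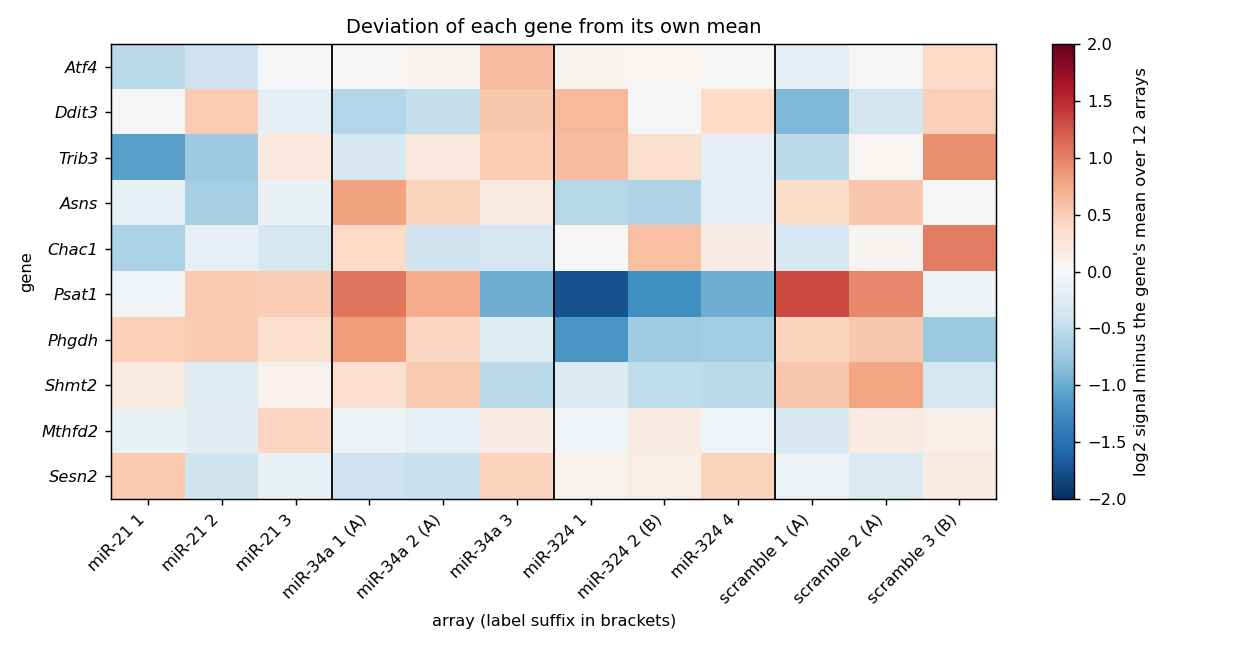
Deviation of each gene from its own mean over the 12 arrays (colour, log2 signal, from -2 to 2), genes down the page and arrays across it, with the suffix in brackets. Psat1 and Phgdh are below their means on the miR-324 arrays, miR-34a 3 and scramble 3. Psat1 is only slightly below its mean on scramble 3, and slightly on miR-21 1 too. Trib3 and Chac1 are highest on scramble 3 and lowest on miR-21 1.

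Over the 12 arrays the genes did not vary as 1 group. Psat1 was closest to Phgdh (Pearson r = 0.886 over 12 arrays, and 0.877 for deviations from the group means), Shmt2 to Psat1 (0.818 and 0.714) and Asns to Shmt2 (0.695 and 0.705). Atf4 and Trib3 were closest to each other (0.854 and 0.86), and Mthfd2 and Chac1 were closest to Trib3 (0.558 and 0.528 over the 12 arrays). Ddit3 and Sesn2 were closest to each other (0.52), and Ddit3 ran against Shmt2 (-0.821) and Psat1 (-0.763). These are descriptions with no test, over arrays that share suffix and cell mixture. Among the 19495 other genes, the closest to Atf4 were Utp14a (0.932), Tgoln1 (0.923) and Neil1 (0.916). The closest to Ddit3 were Slc8b1 (0.954), Gsdmc4 (0.939) and Lrrfip2 (0.935), and the closest to Asns were Gpaa1 (0.957), Ppp1r7 (0.957) and Ms4a6d (0.949). They are the highest values of that search and carry no test.

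The rest of the pathway was examined in 7 lists, which held 84 genes, 76 of them measured. Limma called 1 of the 76 against scramble, Slc7a3, which fell with miR-21, beside 1.04% of all probes, and none with miR-34a or miR-324. At an unadjusted p under 0.05 there were 21, 1 and 6 of the 76 with miR-21, miR-34a and miR-324, beside 16.6%, 1.46% and 14.7% of all probes. Without miR-34a 3, limma called 9 of the 76 with miR-21, beside 935 of the 19572 probes, and without scramble 3 it called 1 with miR-324, Wars at -1.42 (adjusted p = 0.0475), beside 383 of the 19572.

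The amino acid transporter list held the call. Slc7a3, a transporter of arginine and other cationic amino acids, read 7.23, 6.42 and 7.12 with miR-21, against 8.07, 8.79 and 8.74 with scramble. The difference was -1.61 ± 0.34 (SE), 3.05-fold lower (limma, adjusted p = 0.048), and the groups did not overlap. The call rested close to the threshold: it held in 2 of the 12 fits that left out 1 array (adjusted p 0.0116 to 0.167), without miR-34a 3 and without miR-324 1, and the difference was -0.84 with the suffix as a fixed block (limma, adjusted p = 0.406). Slc7a11, the cystine carrier that feeds glutathione synthesis, had a larger difference that missed the threshold. It read 8.60, 8.73 and 9.25 with miR-21, against 11.14, 11.28 and 13.64 with scramble, a difference of -3.16 ± 0.75 and 8.94-fold lower (limma, adjusted p = 0.067). It was called with the suffix as a fixed block (-3.64; limma, adjusted p = 0.00489), in the fit of the 2 groups alone (limma, adjusted p = 0.0218), without miR-34a 3 (limma, adjusted p = 0.0237) and without miR-324 1 (limma, adjusted p = 0.0334). No other of the 12 fits that left out 1 array called Slc7a11. It was not called after quantile normalization or with the suffix as a random block either. The fixed block sets miR-21 against scramble only by way of the other groups. On the miR-324 arrays Slc7a11 was 10.76, 13.34 and 12.97, so the 2 arrays of suffix B and miR-324 4 were the highest of the miR-324 and scramble groups. Of the 9 transporters 7 had a lower mean with miR-21, and the list's median was -0.56 beside 0.13 for all probes. The myelinating Schwann cell markers, 4 of 6 above the receptor probes on every array, had medians of 13.36 to 13.66 on the miR-21 arrays and 7.74 to 9.96 on the scramble arrays, and their part in the transporter values was not tested.

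None of the other 6 lists had a call in any comparison with scramble. Among the transcription factors and feedback genes (13 measured), Vldlr, a lipoprotein receptor, differed by 1.22 ± 0.27 with miR-21 (limma, adjusted p = 0.0514) and Ddit4, an inhibitor of mTORC1, by -1.18 ± 0.27 (limma, adjusted p = 0.0617). Among the genes of serine, folate and amino acid synthesis (10 measured), Mthfd1l, a mitochondrial folate enzyme, differed by 1.29 ± 0.32 with miR-21 (limma, adjusted p = 0.0782). Got1, the cytosolic aspartate aminotransferase, differed by -1.69 with miR-21 (limma, adjusted p = 0.13) and by -1.38 with miR-324 (limma, adjusted p = 0.313). Of the 10 genes of this synthesis list, 7 had a higher mean with miR-324 and 3 a lower one. The list's median with miR-324 was 0.20, beside 0.09 for all probes.

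Among the cytosolic tRNA synthetases (12 measured), which charge tRNAs with amino acids, the largest value was Wars, the tryptophan enzyme, at -1.12 ± 0.32 with miR-324 (limma, adjusted p = 0.309), and Sars, the serine enzyme, was -0.65 with miR-21 (limma, adjusted p = 0.15). Among the eIF2 kinases and the eIF2 and eIF2B subunits (10 measured), Eif2b2 was -1.09 and Eif2ak2, the kinase PKR that senses double-stranded RNA, -1.21 with miR-21 (limma, adjusted p = 0.0757 and 0.0872). Hsp90b1, an endoplasmic reticulum chaperone of the ATF6 and XBP1 list (16 measured), differed by 1.28 with miR-21 (limma, adjusted p = 0.142), and Creld2 of the same list by 0.94 (limma, adjusted p = 0.289). Of the mitochondrial chaperones and proteases (6 measured), the protease subunit Clpp was -0.65 and the chaperonin Hspe1 0.53 with miR-21 (limma, adjusted p = 0.174 and 0.325). The medians of these 6 lists lay between -0.18 and 0.43 with miR-21, between -0.05 and 0.26 with miR-34a and between -0.10 and 0.20 with miR-324.

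**Figure D4:**
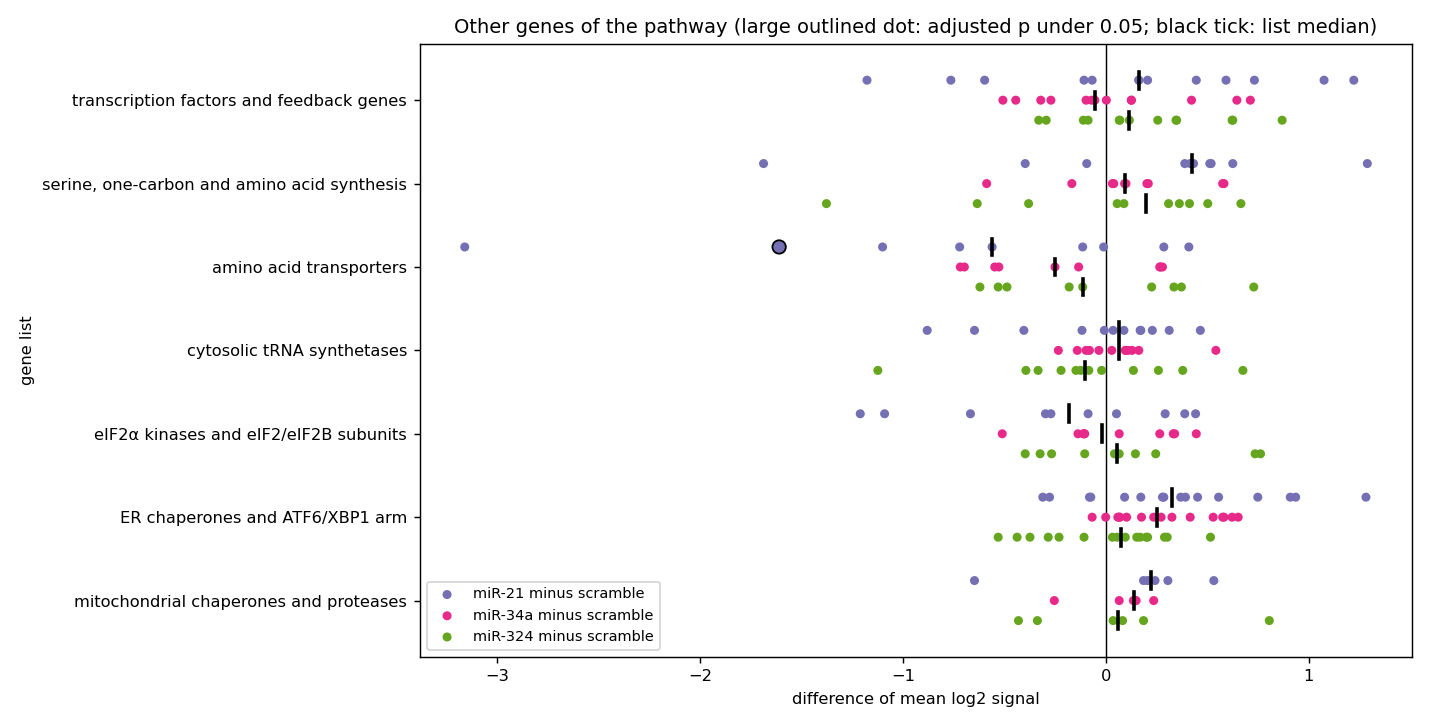
Difference of mean log2 signal from scramble (horizontal axis) of the 76 other pathway genes, in 7 lists down the page, 1 dot for a gene in each comparison, coloured by miRNA, with a black tick at each list's median. The single large outlined dot, in the transporter list with miR-21, is Slc7a3 at -1.61, and Slc7a11 lies to its left at -3.16 without a call.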

How the data were processed

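The authors deposited log2 signals of 22206 probes on 12 Clariom S Mouse arrays, for which the submitters' processing notes name RMA (robust multi-array averaging) and Transcriptome Analysis Console 4.0. RMA normalizes between arrays, so a change in total signal is largely lost, but the deposited arrays do not share 1 distribution (medians 5.91 to 6.06, highest values 18.77 to 19.77). A platform table named 19572 probes, and 2634 without a symbol were left out of the tests. Array data have no read depth, and the number of arrays limits precision. Groups came from the sample titles. With limma 3.58.1 (R 4.3.3), group means were fitted to the 12 arrays together (8 residual and 4.28 prior degrees of freedom), two-sided, with Benjamini-Hochberg adjustment over the named probes and a threshold of 0.05, and the fit was tested on simulated data. No covariate was used. Same-numbered arrays did not consistently deviate together (r from -0.412 to 0.475 over 15 pairs, 4 over 0.1), so numbers were not taken to pair them. Of the 12 arrays, 6 were closest to one of their own number. The number of scramble 3 is a name given here, because its title carries different numbers in different places. The highest r, with miR-34a 3, and the setting with the replicate number as a block rest on that name. Alternatives were 11 settings and 12 fits that left out 1 array.

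The genes and the lists were chosen with earlier results of these data known. Named were the 10 genes, per list up to 4 called genes, filled to 2 by the smallest unadjusted p, the 3 closest genes to Atf4, Ddit3 and Asns by Pearson r, each gene's closest fellow, and Eif2s3y and Prl. Sequences and positions are from RefSeq (GRCm38.p6).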

Additional observations from a re-analysis of the deposited data

How the results depend on the processing

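The 10 genes' 30 differences from scramble stayed on their side of the threshold in all settings and fits but those named here, but their values moved. Their sign differed in 30 of 307 values over the 11 settings, 12 of them among the 30 with the suffix as a fixed block, 6 with it random and 6 after quantile normalization, and in 30 of 360 values without 1 array. With the suffix fixed, 21 of 30 moved by over 1.5 times. Calls among the 10 genes for miR-21 against miR-324 were 2 in the fit of those groups alone, 2 at an unadjusted p with at least 2-fold, 1 with the replicate number as a block (Phgdh, adjusted p = 0.0347), and 2 with the suffix as a fixed or a random block, and the fixed block gave 2 in the F test. At an unadjusted p with at least 2-fold there was 1 call for miR-324 against scramble (Psat1) and 2 for miR-34a against miR-324. Between miRNAs and in the F test, the share of all probes called is given only for the 12-array fit without a block. Leaving out 1 array gave 0 to 2 calls for miR-324 against scramble, miR-21 against miR-324, miR-34a against miR-324 and the F test, with calls of Psat1 or Phgdh only without miR-34a 3 or scramble 3. Pathway calls with miR-21 were 2 after quantile normalization (Vldlr, Slc7a3), 3 among the brighter probes (Sesn2 drops out there), 0 with a variance trend, 7 in the fit of the groups alone, 11 at an unadjusted p with at least 2-fold (2 with miR-324), 2 with the suffix fixed, 0 with it random, and 0 to 9 without 1 array (0 to 1 with miR-324, Wars without scramble 3). Over all probes miR-21 had 906 calls in the fit of the groups alone, 1419 at an unadjusted p with at least 2-fold (33 with miR-34a, 1146 with miR-324), 129 with the replicate block, 684 and 34 with the suffix fixed and random, and 11 to 935 without 1 array (0 to 383 with miR-324). With the replicate block Slc7a3 lost its call (adjusted p = 0.0875) and Slc7a11 gained one (adjusted p = 0.0404), and beside these and Phgdh no call among the 10 genes or the lists changed. Signs of differences larger than their SE turned for Ddit3 with miR-324 (-0.26 with the suffix fixed), for Chac1 with miR-34a (0.15 within suffix A, and -0.66 to 0.0333 without 1 array), and for Phgdh with miR-21 (-0.055 to 0.59 without 1 array), the turned values of both without scramble 3. The cause was not tested. After quantile normalization the median of all probes with miR-21 was 0.03, against 0.13 as deposited, and Atf4 with miR-21 was -0.66. With 3 arrays a group, and signals of Sesn2 near the level of receptor probes, small differences were not detectable. In the fit of all 12 arrays without a block, even the -2.04 of Psat1 with miR-324 was not called.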
